A study of Mus musculus with 10 samples.

Results

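Every collagen chain listed in the expression table of these livers is described here: 41 of 17274 genes, taken as all rows whose symbol is Col, a type number, the letter a and a chain number. They were grouped by type number into 10 fibrillar chains (types 1, 2, 3, 5, 11, 24 and 27), 6 basement membrane chains (type 4), 9 FACIT chains (types 9, 12, 14, 16, 19, 20 and 22, the collagens that sit on fibrils) and 16 other chains. The livers came from wild-type (WT) mice made steatohepatitic with a choline-deficient, L-amino acid-defined diet high in fat (CDAHFD), so every group shares the diet, and livers on normal food were not analysed here. A vector made from adeno-associated virus (AAV) was injected into a vein: 5 livers received a control AAV and 5 an AAV encoding miR-181d-5p. The promoter and serotype of the vector, the length of the diet and the age and sex of the mice are not stated in the labels. RNA was measured in whole liver, and the labels do not say that each sample is a separate animal, so a p-value here is set against the spread from sample to sample, which may be technical.

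Collagens are proteins of the extracellular matrix whose chains wind around each other into rope-like helices. Fibrillar chains build the load-bearing fibres of scar, type 4 chains build the sheet under epithelium and vessels, and FACIT chains decorate fibres. In liver disease, hepatic stellate cells that turn into myofibroblasts, and fibroblasts around the portal vein, are the best known makers of fibrillar collagen, while Col18a1, the precursor of endostatin, is also made by hepatocytes.

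A microRNA is loaded into an Argonaute protein and pairs with 3' UTRs mainly through its seed, bases 2 to 8. The seed is shown here in capitals because only matches to it in 3' UTRs were searched for (mature sequence from RefSeq, GRCm38.p6).
miR-181d-5p: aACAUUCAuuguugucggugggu
A match was the 7mer-m8 TGAATGT, the 8mer TGAATGTA or the 7mer-A1 GAATGTA on the transcript strand, an 8mer being counted once, in the longest 3' UTR of each gene in GENCODE vM21. Among 11770 tested genes with such a UTR, 2702 held a match, and 5.93% held an 8mer. Of the 41 collagen genes 10 held a match of any kind, and of the 20 collagen chains abundant enough to be tested 7 did. The stretches below show the matches of the tested chains in capitals with up to 10 bases on each side, 5' to 3' on the transcript.
Col4a1: atcaggccacTGAATGTgaaacaccag
Col5a1: gttcagttgcTGAATGTttgtggtgct
Col5a2: tgcccagtaaTGAATGTtaagactctc
Col6a3: taaagtatatTGAATGTgccatga
Col12a1: gtacacgatcTGAATGTgatcctgtat
Col16a1: tgatgggttgTGAATGTttgtgctatt
Col8a1: gagagcaataGAATGTAttctactttt
The first 6 are 7mer-m8 matches and the one in Col8a1 is a 7mer-A1. All 7 lie in the last annotated exon of the transcript searched. On mm10 the Col4a1 match is at chr8:11199005-11199011 on the reverse strand, in exon 52 of 52, at base 790 of 1378 of the 3' UTR. The Col5a1 match is at chr2:28038340-28038346 on the forward strand, at base 1324 of 2498, and the Col5a2 match at chr1:45375262-45375268 on the reverse strand, at base 816 of 1763. The Col6a3 match starts at base 719 of a 3' UTR of 732 bases. No match was found in the longest 3' UTR of Col1a1, Col1a2, Col3a1, Col4a2 or Col14a1. A match is a stretch of letters, and whether miR-181d-5p binds there was not measured. The remaining 3 collagen genes with a match, Col4a4 (an 8mer), Col6a5 and Col23a1, were too low to be tested.

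Levels are FPKM, fragments assigned to a gene, scaled to its length and to the library's total. The libraries held 18985912 to 20657019 reads assigned to genes, recovered from the FPKM values. A gene was tested with limma, a linear model that shares the spread over all genes, on log2(FPKM + 1) if its mean over the 10 livers was at least 0.5 FPKM, and 12053 genes met this. A log2 change is the miR-181d-5p mean minus the control mean on that scale, where a change in a low gene looks smaller than it is, and its error is a standard error (SE). Of the 41 collagen chains 20 met the limit, and all 20 had a mean of at least 0.5 FPKM in both groups. The lowest tested chain was Col12a1 at a mean of 0.752 FPKM, and the highest chain below the limit was Col9a3 at 0.297 FPKM. From 920 reads (Col8a1) to 150485 reads (Col18a1) over the 10 livers lay behind a tested chain.

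The comparison asked which collagen chains differ between livers given miR-181d-5p and livers given the control vector. Of the 20 tested chains 19 had a lower mean in miR-181d-5p livers, with a median log2 change of -0.38. Over all tested genes the median was -0.02 and 54.5% were lower. No collagen chain passed the test: the adjusted p (limma, Benjamini-Hochberg over all 12053 genes) ran from 0.167 for Col4a1 to 0.919 for Col5a3, and 0.0% of all genes passed. At an unadjusted p under 0.05, 14 of the 20 chains were lower and 0 were higher, beside 9.63% of all genes lower and 5.04% higher. Those shares are 1161 and 607 genes, and the split between them depends on scaling: 1266 and 347 once every library was brought to the same FPKM sum, 942 and 997 after quantile normalization. The count of lower collagen chains was 14 under both scalings. Without control liver 5 the whole table had 1794 genes lower at that level and 14 collagen chains, and without miR-181d-5p liver 4 it had 678 genes and 12 collagen chains. In 2 chains, Col4a1 and Col14a1, every miR-181d-5p liver lay below every control liver, where 1.45% of all genes did so. Fewer collagen-making cells and less collagen RNA per cell cannot be told apart in whole tissue.

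**Figure D1:**
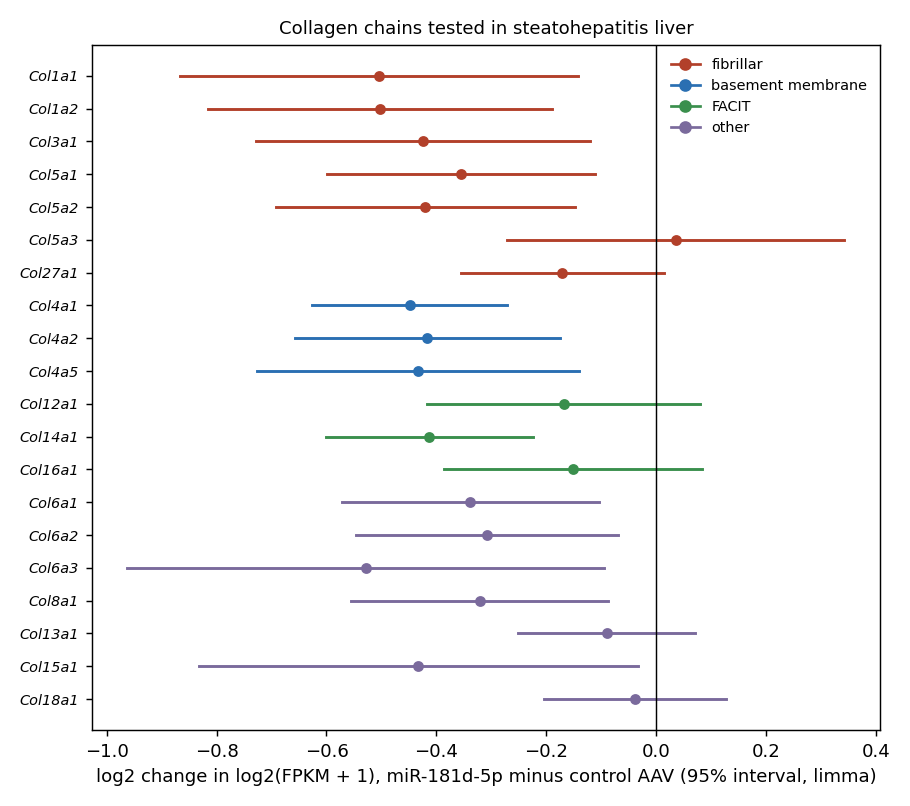
Log2 change of each tested collagen chain (x axis, miR-181d-5p minus control, on the log2(FPKM + 1) scale) with its 95% interval from limma, coloured by class. Points lie left of 0 for 19 of 20 chains, with Col5a3 at 0.04 and Col18a1 at -0.04 closest to it.

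Among the fibrillar chains 7 of 10 were tested, 6 were lower and 5 had an unadjusted p under 0.05. The chains of type I collagen, the main fibre of scar, head the group. Col1a1 stood at 60.4, 59.2, 42.3, 71.6 and 66.6 FPKM in control livers 1 to 5 and at 49.2, 44.9, 49.6, 27.3 and 40.4 FPKM in miR-181d-5p livers 1 to 5. The groups overlapped, because control liver 3 was below 3 of the miR-181d-5p livers, and miR-181d-5p liver 4 was the lowest of all. The means were 60.01 ± 11.1 and 42.3 ± 9.19 FPKM (SD, n = 5 each), a log2 change of -0.50 (SE 0.17, limma adjusted p = 0.250). Its partner Col1a2 stood at 66.8, 71.4, 54.2, 84.0 and 75.4 FPKM in controls and at 58.0, 50.8, 56.4, 34.0 and 49.1 FPKM with miR-181d-5p. It had the smallest p among fibrillar chains, with a log2 change of -0.50 (SE 0.14, limma adjusted p = 0.235) and again an overlap through control liver 3.

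Col3a1, which forms type III fibres of a single kind of chain and is the most abundant collagen mRNA of the control livers, stood at 121, 122, 108, 152 and 142 FPKM in controls. With miR-181d-5p it stood at 115, 99.2, 110, 66.3 and 92.9 FPKM. Livers 1 and 3 of the miR-181d-5p group were above control liver 3, and the miR-181d-5p mean was 75.1% of control (log2 change -0.42, SE 0.14, limma adjusted p = 0.250). Col5a1 and Col5a2 encode type V collagen, which starts and thins the fibres. Col5a1 stood at 8.06, 8.10, 5.84, 8.35 and 8.31 FPKM against 6.63, 6.07, 6.45, 4.51 and 5.49 FPKM. Control liver 3 again fell among the miR-181d-5p livers while the other 4 controls were above all of them. Col5a2 stood at 9.15, 9.95, 7.74, 11.5 and 10.9 FPKM against 8.18, 6.97, 8.48, 5.22 and 6.80 FPKM. Their log2 changes were -0.36 (SE 0.11) for Col5a1 and -0.42 (SE 0.13) for Col5a2.

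Not every fibrillar chain was lower. Col5a3, the least common chain of type V collagen, stood at 2.003 ± 0.601 FPKM in controls and 2.06 ± 0.455 FPKM with miR-181d-5p (SD, n = 5 each). Its log2 change of 0.04 had a 95% interval of -0.27 to 0.34, and its difference from Col5a1 was not tested. The sign of Col5a3 turned to -0.04 without control liver 2 and to -0.03 without control liver 3 or miR-181d-5p liver 3. Col27a1, a fibrillar chain known from cartilage, was low (0.958 ± 0.223 and 0.732 ± 0.0892 FPKM). Its log2 change was -0.17 (SE 0.09), with an unadjusted limma p of 0.0675.

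**Figure D2:**
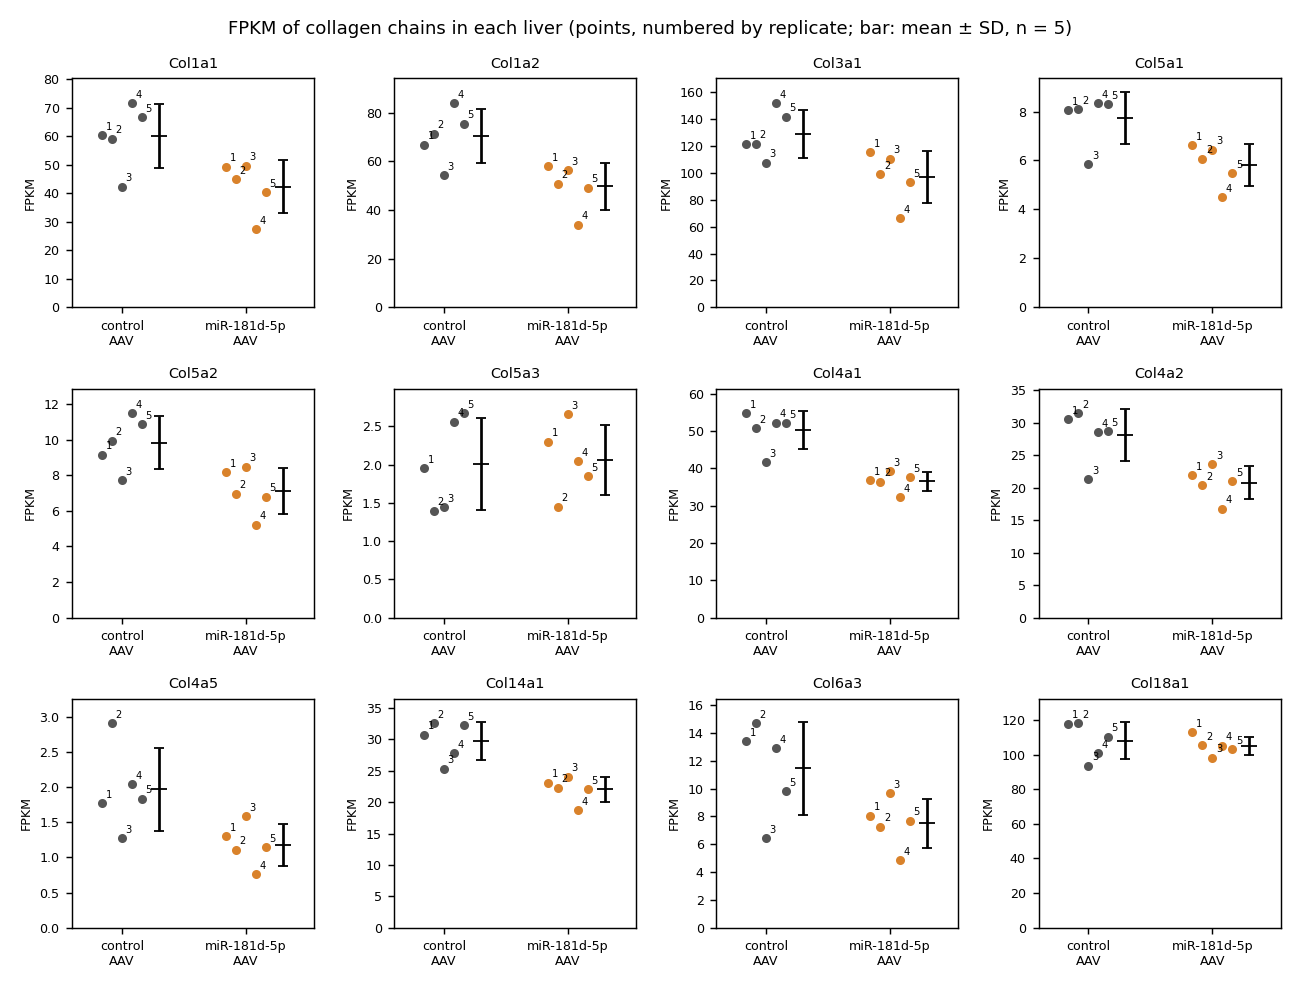
FPKM of 12 collagen chains in each liver (y axis from 0), points numbered by replicate within the control AAV and miR-181d-5p AAV groups, with bars for mean ± SD (n = 5). Col4a1 and Col14a1 have no overlap between groups, control liver 3 is low in most panels, and Col5a3 and Col18a1 lie at similar levels in both groups.

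Col4a1, a basement membrane chain, had the smallest p of the 20 chains, followed by the FACIT chain Col14a1. All 3 tested of 6 basement membrane chains were lower, with log2 changes of -0.45 to -0.42 and unadjusted p under 0.05. Col4a1 and Col4a2 encode the chains of the common type IV network, which lies under ducts and vessels and appears along sinusoids when they lose their open wall. Col4a1 stood at 54.8, 50.7, 41.6, 52.2 and 52.0 FPKM in controls and at 36.8, 36.4, 39.2, 32.3 and 37.7 FPKM with miR-181d-5p. The highest miR-181d-5p liver was below the lowest control liver. Its log2 change was -0.45 (SE 0.08, 95% interval -0.63 to -0.27, unadjusted p = 1.18e-04, limma adjusted p = 0.167), and it rests on 32578 reads in controls against 23672. Over 18 other settings, leaving out each liver included, the adjusted p of Col4a1 ran from 0.104 to 0.502 and its log2 change from -0.51 to -0.41.

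Col4a2 stood at 30.5, 31.5, 21.3, 28.6 and 28.7 FPKM in controls and at 21.9, 20.4, 23.6, 16.8 and 20.97 FPKM with miR-181d-5p. Control liver 3 was below miR-181d-5p livers 1 and 3, and the other 4 controls were above the whole miR-181d-5p group (log2 change -0.42, SE 0.11, limma adjusted p = 0.222). Col4a5, a chain of the rarer type IV networks, stood at 1.78, 2.91, 1.27, 2.04 and 1.84 FPKM against 1.31, 1.11, 1.58, 0.761 and 1.14 FPKM. The groups overlapped, and the miR-181d-5p mean was 60.02% of control (log2 change -0.43, SE 0.14, limma adjusted p = 0.240). The other type IV chains were below the limit, with 230 reads in controls against 143 for Col4a4, 177 against 82 for Col4a6 and 96 against 55 for Col4a3.

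Type IV genes lie in pairs that start next to each other and point apart. In GENCODE vM21 (mm10) Col4a1 (chromosome 8, 11198423 to 11312826, reverse strand) and Col4a2 (chromosome 8, 11312805 to 11449287, forward strand) have starts 21 bases apart, so that 22 bases belong to both. Col4a4 and Col4a3 on chromosome 1 start 72 bases apart, and Col4a6 and Col4a5 on chromosome X 1309 bases apart. The shared start region of Col4a1 and Col4a2 is shown because 1 window serves both genes, whose ratio is given further on. It is the RefSeq promoter window of Col4a2 (GRCm38.p6, chr8:11312555-11312854, forward strand), 300 bases that hold the starts of both genes, with CCAAT and GGGCGG, searched on both strands, in capitals.
Col4a2 promoter: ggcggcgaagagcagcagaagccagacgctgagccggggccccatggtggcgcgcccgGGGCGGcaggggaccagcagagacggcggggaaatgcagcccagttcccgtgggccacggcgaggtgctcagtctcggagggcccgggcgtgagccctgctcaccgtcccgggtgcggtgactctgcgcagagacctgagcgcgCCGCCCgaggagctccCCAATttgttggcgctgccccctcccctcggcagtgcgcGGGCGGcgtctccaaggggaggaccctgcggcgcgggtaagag
The window holds 1 CCAAT and 3 GGGCGG. A promoter window was found for 16 of the 20 tested chains, in 18 windows. CCAAT stood in 7 of the 18 windows (38.9%), near the 37.4% of all 32851 windows of the same length. GGGCGG stood in 12 of 18 (66.7%, against 35.7% of all windows), and TATAAA in 2 of 18 (11.1%, against 13.6%). These are counts of letters and say nothing of which factor binds. The windows of Col4a1 and Col4a2 overlap, and the only GGGCGG of Col4a1 is the same stretch as 1 of the 3 in Col4a2. That stretch is therefore counted for both windows, and the 18 are not all separate. The starts of Col3a1 and Col5a2 are 191744 bases apart on chromosome 1, where the genes lie tail to tail with a gap of 24614 bases, and Col6a2 and Col6a1 follow each other on chromosome 10 with a gap of 85161 bases.

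FACIT chains were represented by 3 tested of 9, all lower, with 1 at an unadjusted p under 0.05. Col14a1, which coats mature fibres and marks fibroblasts and stellate cells, stood at 30.7, 32.5, 25.3, 27.8 and 32.2 FPKM in controls and at 23.1, 22.3, 24.1, 18.7 and 22.04 FPKM with miR-181d-5p. The groups did not overlap, with 24.1 FPKM in the highest miR-181d-5p liver and 25.3 FPKM in the lowest control. Its log2 change was -0.41 (SE 0.09, unadjusted p = 4.13e-04, limma adjusted p = 0.221). Col12a1, a related chain of stretched tissue, was low and uneven, at 0.997, 1.33, 0.406, 0.675 and 0.916 FPKM in controls against 0.687, 0.625, 0.715, 0.498 and 0.666 FPKM. The control range enclosed the whole miR-181d-5p range (log2 change -0.17, SE 0.11, limma adjusted p = 0.496). The log2 change of Col12a1 was -0.08 without control liver 2 and -0.26 without control liver 3 (limma adjusted p = 0.254). Col16a1 stood at 2.53, 2.82, 2.31, 2.99 and 3.43 FPKM against 2.78, 2.57, 2.72, 1.69 and 2.47 FPKM. Of the miR-181d-5p livers 4 lay within the control range, and the log2 change was -0.15 (SE 0.11, limma adjusted p = 0.518), -0.06 without miR-181d-5p liver 4 and -0.10 without control liver 5.

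Among the other chains 7 of 16 were tested and all 7 were lower, 5 of them at an unadjusted p under 0.05. Type VI collagen forms beaded filaments around cells from the chains Col6a1, Col6a2 and Col6a3. Col6a1 stood at 16.4, 16.7, 12.1, 19.6 and 16.4 FPKM in controls and at 13.9, 12.3, 13.05, 11.02 and 12.4 FPKM with miR-181d-5p. Control liver 3 lay within the miR-181d-5p range and the other 4 controls above it (log2 change -0.34, SE 0.11, limma adjusted p = 0.245). Col6a2 stood at 8.43, 8.14, 6.15, 9.83 and 8.58 FPKM against 6.96, 6.63, 6.80, 5.17 and 6.54 FPKM, with the same overlap through control liver 3 (log2 change -0.31, SE 0.11). Col6a3 stood at 13.4, 14.7, 6.43, 12.9 and 9.80 FPKM against 8.06, 7.26, 9.65, 4.84 and 7.68 FPKM. Its log2 change was -0.53 (SE 0.20, limma adjusted p = 0.281), at 11.4 ± 3.32 FPKM in controls against 7.50 ± 1.74 FPKM (SD, n = 5 each).

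Col8a1, a short chain known from vessel walls, stood at 1.20, 1.34, 0.700, 1.184 and 1.22 FPKM in controls and at 0.752, 0.853, 0.969, 0.442 and 0.522 FPKM with miR-181d-5p. Its miR-181d-5p mean was 62.6% of control, from 355 reads against 565, and the groups overlapped through control liver 3 (limma adjusted p = 0.250). The log2 change of Col8a1 was -0.32 on the log2(FPKM + 1) scale and -0.63 with a pseudocount of 0.1, and -0.69 by voom on the recovered reads. Col15a1, a multiplexin that links basement membrane to the matrix beneath it, stood at 5.54 ± 1.58 against 3.82 ± 1.02 FPKM (log2 change -0.43, SE 0.18, limma adjusted p = 0.316). Col13a1, which spans the cell membrane, stood at 1.52 ± 0.210 against 1.37 ± 0.0977 FPKM (log2 change -0.09, SE 0.07, limma adjusted p = 0.578).

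Col18a1, the other multiplexin, was second to Col3a1 in abundance in controls and lay at similar levels in both groups. It stood at 118, 118, 93.6, 101 and 110 FPKM in controls and at 113, 105, 98.2, 105 and 103 FPKM with miR-181d-5p, and every miR-181d-5p liver was within the control range. The log2 change was -0.04 (SE 0.08, 95% interval -0.20 to 0.13, limma adjusted p = 0.837), and 0.0081 with array weights. The other chains, Col18a1 included, summed to 90.1% of control with miR-181d-5p. The fibrillar chains summed to 280 ± 42.2 against 205 ± 40.2 FPKM (73.1% of control), the basement membrane chains to 80.9 ± 9.39 against 58.7 ± 5.43 FPKM (72.6%) and the FACIT chains to 34.1 ± 3.59 against 25.6 ± 2.62 FPKM (75.1%). All 41 chains summed to 548 ± 64.0 against 427 ± 52.9 FPKM (77.9%), and to 73.2% of control with Col18a1 left out. These sums are descriptions with no test. Col18a1 made up 19.8 ± 1.98% of the summed collagen FPKM in controls and 24.9 ± 3.53% with miR-181d-5p, and Col3a1 23.5 ± 1.72% and 22.5 ± 1.90%.

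**Figure D3:**
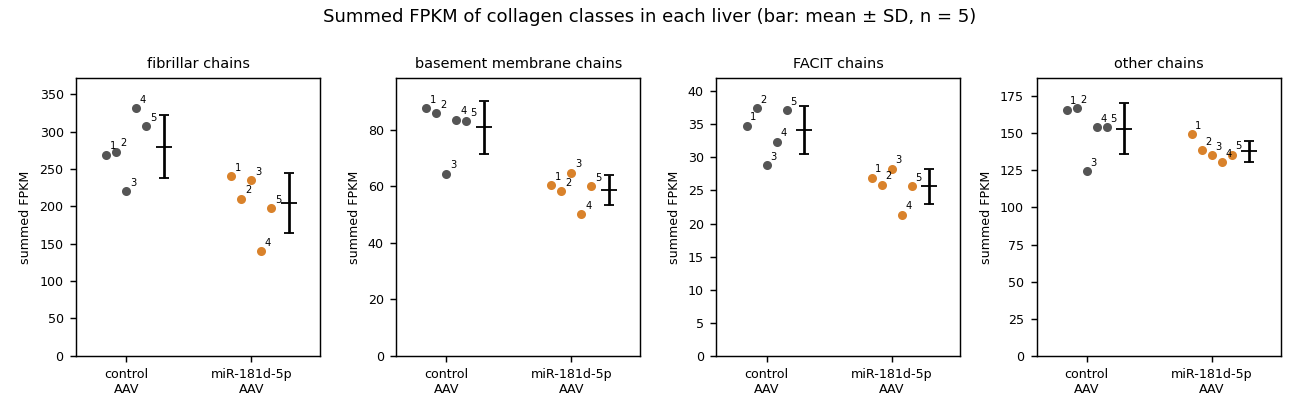
Summed FPKM of the chains of each class in each liver (y axis from 0), points numbered by replicate, with bars for mean ± SD (n = 5). The miR-181d-5p mean is 73.1% of control for fibrillar, 72.6% for basement membrane, 75.1% for FACIT and 90.1% for other chains.

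Ratios of chains within a liver do not depend on how that liver was scaled, and 8 were compared by a two-sided exact permutation test over the 10 livers, with p-values adjusted over the 8. The smallest exact permutation p that 5 against 5 livers can give is 0.00794. After adjustment over the 8, 1 ratio alone could therefore not pass 0.05, so a ratio that did not pass is no sign of an unchanged ratio. For chains that assemble together the ratios lay close in both groups. Col1a2 over Col1a1 was 1.179 ± 0.0682 in controls and 1.182 ± 0.04996 with miR-181d-5p (exact permutation p = 0.905, adjusted p = 0.905). The log2 difference had a 95% interval from the same test of -0.11 to 0.11. Col4a2 over Col4a1 was 0.558 ± 0.0395 against 0.567 ± 0.0331, with an interval of -0.12 to 0.14 (exact permutation p = 0.706, adjusted p = 0.880). Col6a2 over Col6a1 was 0.507 ± 0.0137 against 0.512 ± 0.0277, with an interval of -0.09 to 0.10 (exact permutation p = 0.770, adjusted p = 0.880). Col5a2 over Col5a1 was 1.275 ± 0.0943 against 1.22 ± 0.0684, with an interval of -0.19 to 0.10 (exact permutation p = 0.365, adjusted p = 0.880). Each interval holds the shifts that the test on these 10 livers did not reject at 0.05.

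The other 4 ratios set collagens of different kinds against Col1a1. Col3a1 over Col1a1 was 2.17 ± 0.215 against 2.30 ± 0.0895, with a log2 difference of 0.09 and an interval of -0.07 to 0.21 (exact permutation p = 0.238, adjusted p = 0.880). Without control liver 3, the control with the highest such ratio, the difference was 0.15 (exact permutation p = 0.00794, the smallest that 4 against 5 livers can give, adjusted p = 0.0635). Col4a1 over Col1a1 was 0.851 ± 0.1004 against 0.893 ± 0.176, with an interval of -0.28 to 0.38 (exact permutation p = 0.730, adjusted p = 0.880). Col14a1 over Col1a1 was 0.506 ± 0.0788 against 0.537 ± 0.0890, with an interval of -0.23 to 0.43 (exact permutation p = 0.595, adjusted p = 0.880). Col18a1 over Col1a1 stood apart most, at 1.95, 1.99, 2.21, 1.41 and 1.66 in controls against 2.29, 2.35, 1.98, 3.85 and 2.55 with miR-181d-5p. The ratio was above every control in 4 of 5 miR-181d-5p livers. Its log2 difference was 0.48 with an interval of 0.04 to 0.96 (exact permutation p = 0.0238), which did not pass after adjustment (adjusted p = 0.190). With this few livers it could not have passed alone, whatever its values. Without miR-181d-5p liver 4 the difference was 0.33.

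**Figure D4:**
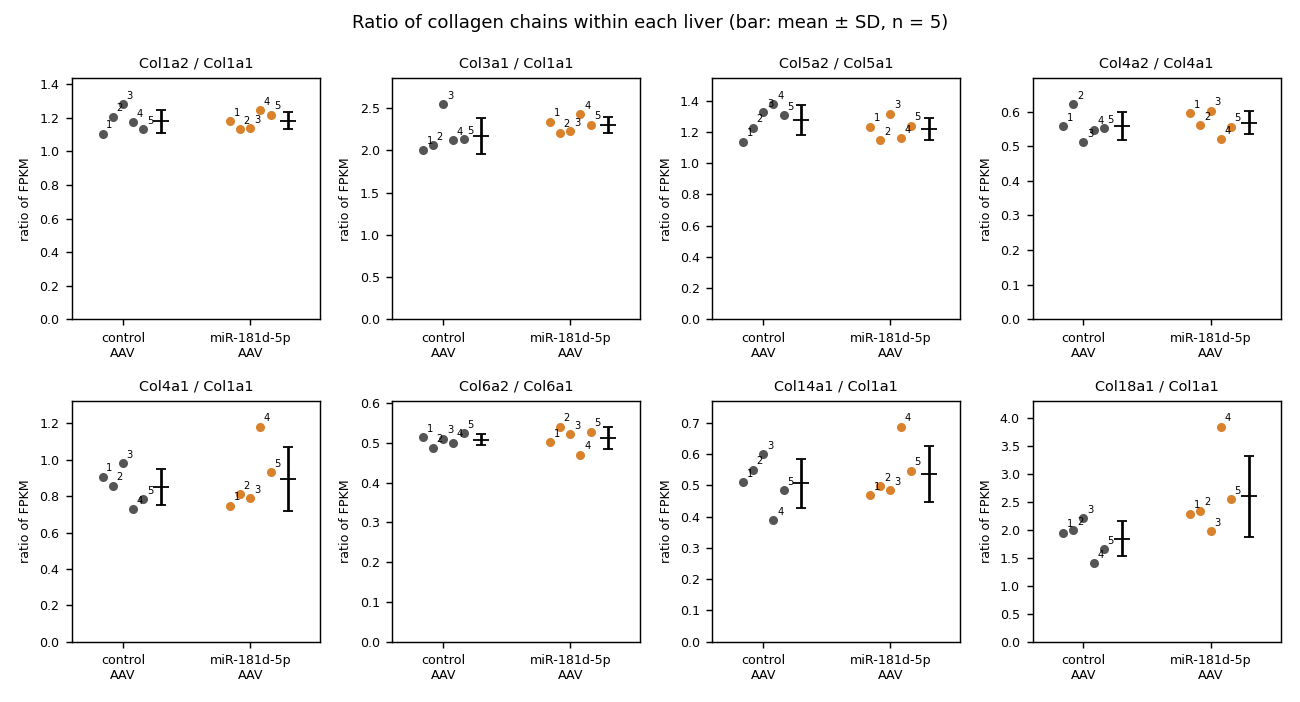
Ratio of FPKM between 2 collagen chains in each liver (y axis from 0), points numbered by replicate, with bars for mean ± SD (n = 5). The ratios of partner chains lie close in both groups, and Col18a1 over Col1a1 is above every control liver in 4 of 5 miR-181d-5p livers, with liver 4 at 3.85.

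The lowest liver of each group was the same for most tested chains, while the highest varied. Control liver 3 was the lowest control for 18 of the 20 tested chains, and miR-181d-5p liver 4 the lowest of its group for 18 and the lowest of all 10 livers for 17. The highest control was liver 2 for 8 chains and liver 4 for 8. Without control liver 3, 16 chains were lower at an unadjusted p under 0.05 (limma) and the median log2 change was -0.45. Without miR-181d-5p liver 4 there were 12, with a median of -0.30 and a lowest adjusted p of 0.502. All chains were read in the same 10 livers, so they are not 20 separate observations of the treatment.

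The 21 chains below the limit held 1 to 373 recovered reads each over all 10 livers. The miR-181d-5p mean was lower in 19 and higher in 2, Col2a1 and Col19a1. Each of these 2 was seen in 1 liver only. There the smallest length that gives a whole read returns 1 read, which is a lower bound. The groups did not separate for any of the 21. They comprised the cartilage chains Col2a1, Col9a1, Col9a2, Col9a3 and Col11a2, the type IV chains Col4a3, Col4a4 and Col4a6, the type VI chains Col6a4, Col6a5 and Col6a6, and Col7a1, Col8a2, Col17a1, Col19a1, Col20a1, Col22a1, Col23a1, Col24a1, Col25a1 and Col28a1. In 10 of the 21 fewer than 100 reads were recovered in all. With no limit on the level, 38 of 41 chains had a lower log2 mean and 17 an unadjusted p under 0.05 (limma).

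The log2 changes of chains with and without a seed match overlapped. The 7 tested chains with a match had log2 changes of -0.53 to -0.15 with a median of -0.36, and the 13 without one -0.50 to 0.04 with a median of -0.41. These values are on the log2(FPKM + 1) scale, which shrinks the change of low chains with or without a match. By voom on the recovered reads Col8a1 went from -0.32 to -0.69 and Col12a1 from -0.17 to -0.33, both with a match. Without one, Col4a5 went from -0.43 to -0.72. The order of the 2 medians depends on this scale, and the difference between the sets with and without a match was not tested. Median 3' UTR length was 994 bases for the tested chains and 1114 bases for all tested genes.

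Genes that make, cross-link, bind and clear collagen were lower in most cases too. Of 27 tested enzymes and chaperones of collagen making and cross-linking 22 were lower, 10 at an unadjusted p under 0.05, and 2 were higher at that level. Over all tested genes 54.5% were lower, 9.63% were lower at that level and 5.04% higher. P4ha1, the catalytic subunit of prolyl 4-hydroxylase that lets the helix hold at body heat, stood at 11.1 ± 2.11 against 7.41 ± 0.452 FPKM (limma adjusted p = 0.221). P3h2, a prolyl 3-hydroxylase acting on basement membrane collagen, was at 65.7% of control, and the lysyl oxidases Loxl3 and Loxl2, which cross-link chains, were at 67.6% and 78.0%. The 2 higher genes were Pcolce2, at 130.6% of control, and P4hb, the other subunit of prolyl 4-hydroxylase and a general disulfide isomerase, at 117.9%. Both are named after their values were seen.

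Of 8 tested collagen receptors 7 were lower, 5 at an unadjusted p under 0.05 (all tested genes: 54.5% and 9.63%, also for the lists that follow). Ddr2, a receptor kinase for fibrillar collagen, stood at 2.18 ± 0.316 against 1.58 ± 0.0806 FPKM. Lair1, an inhibitory receptor of leukocytes, Mrc2, an uptake receptor for collagen, and Itgb1, the shared integrin beta chain, were at 71.7%, 64.7% and 88.2% of control. All 8 tested genes of collagen breakdown were lower, 3 at an unadjusted p under 0.05, with Timp2, an inhibitor of matrix metalloproteinases, at 74.6%, the collagenase Mmp8 at 67.5%, the cathepsin Ctsk at 71.0% and the gelatinase Mmp2 at 76.2% of control. Of 13 tested fibril partners 12 were lower, 11 at an unadjusted p under 0.05. Bgn, a small proteoglycan, was at 72.5%, the matricellular proteins Tnc and Postn at 66.5% and 78.4%, and Sparc, which binds collagen, at 75.6% of control. No gene of these 4 lists passed over all genes by limma.

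Markers of the cells that can make collagen were compared beside the chains, and their part in the result was not tested. The 9 stellate cell markers summed to 82.9 to 102 FPKM in controls and 71.0 to 84.6 FPKM with miR-181d-5p, with 7 of 9 lower and 3 at an unadjusted p under 0.05. For every marker list these counts stand beside 54.5% of all tested genes lower and 9.63% lower at that level. Reln was at 74.3% of control, Cygb at 75.6%, Pdgfrb, a growth factor receptor, at 81.8%, Lrat, which esterifies vitamin A for storage, at 84.0% and Hand2 at 89.4%. Des, Ngfr and Lhx2 were at 95.6%, 104.6% and 108.1%. Myofibroblast and smooth muscle markers (3 of 4 tested, all 3 lower, 2 at an unadjusted p under 0.05) summed to 40.6 to 92.7 against 27.5 to 42.5 FPKM. The 7 portal fibroblast and mesothelial markers, all lower and 4 of them at that level, summed to 26.01 to 41.3 against 18.4 to 27.7 FPKM. All 6 cholangiocyte markers were lower as well, 5 at that level, with a median log2 change of -0.62 beside -0.38 for the tested collagen chains. They summed to 269 to 503 against 111 to 367 FPKM, of which Spp1 is the largest part. Sinusoidal endothelial markers were lower in 5 of 7, 3 at that level, and summed to 120 to 135 against 116 to 123 FPKM. Clec4g, the largest part of this sum, was at 106.75% of control and Kdr at 111.5%. The 3 at that level, Lyve1, Stab1 and Pecam1, were at 76.7%, 82.55% and 85.8%. Macrophage markers were lower in 4 of 5, 3 at that level, at 446 to 545 against 358 to 451 FPKM. Hepatocyte markers were lower in 2 of 6, 0 at that level (1 was higher), and summed to 29058 to 35206 against 30117 to 33937 FPKM. None of the markers was at 0 in all 10 livers at once. The hepatocyte sums, at 29058 FPKM or more in each liver and with Alb at 22375 ± 1562 FPKM in controls, show hepatocyte RNA in every liver.

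The main chains lie at the following places on mm10 (GENCODE vM21). Col1a1 spans 94936224 to 94953042 on chromosome 11, and Col1a2 4504814 to 4541544 on chromosome 6. Col3a1 (45311538 to 45349706), Col5a2 (45374321 to 45503282) and Col6a3 (90765923 to 90843971) are on chromosome 1, and Col5a1 spans 27886425 to 28039514 on chromosome 2. Col14a1 spans 55307750 to 55520803 on chromosome 15. Col6a2 (76595762 to 76623630), Col6a1 (76708792 to 76726168) and Col18a1 (77052178 to 77166548) are on chromosome 10. Exons of 4 tested chains (Col5a1, Col4a1, Col4a2 and Col15a1) overlap an annotated gene on the opposite strand, and those of Col3a1 a gene on its own strand, by at most 1.44% of their exon bases. The strand setting of the counting is unknown, so reads of overlapping genes may have been mixed.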

How the data were processed

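The authors deposited FPKM with 1 column for each liver, and each column carries the group and number of its sample. RNA came from mirVana extraction and TruSeq Stranded mRNA libraries, per the labels' protocols. The genome was mm10 and the listed software was DESeq2 1.18.1, HTSeq 0.13.5, HISAT2 2.2.1, R 3.4.1, Trimmomatic 0.38 and FastQC 0.11.9, per the submitters' processing notes. The role of each, the strand setting and the FPKM formula are unknown here. Members and lists were chosen with earlier results of these data known. All tested chains are named, and from each list of collagen-related genes the 4 of smallest p, plus P4hb and Pcolce2.

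Genes averaging 0.5 FPKM or more entered limma (version 3.58.1, R 4.3.3) as log2(FPKM + 1), with group as the only term, a trended eBayes prior and Benjamini-Hochberg adjustment (threshold 0.05, two-sided). The fit was tested on simulated data. Whole reads were recovered as the library total and smallest gene length that made a gene's values whole in every liver within 0.02 of a read, which held for 17274 of 17274 genes (100%). Sums, ratios and figures used Python 3.11.15. Promoters and the microRNA come from RefSeq, gene models from GENCODE vM21, which matched all 41 chains. Alternatives were a pseudocount of 0.1, no filter, a filter at 1 FPKM, a common FPKM sum, quantile normalization, array weights, a replicate block, voom on recovered reads, a pseudocount of 1 in the ratios and leaving out each liver. Counting error is the only error that read numbers speak to. The level of 1 stellate marker is not reported here.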

Additional observations from a re-analysis of the deposited data

Results flagged for a closer look

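In a group of 5 livers, a liver was picked out when its distance to the nearest other liver exceeded 0.71 of the group's whole range. Of 68 groups looked at (tested chains, ratios and class sums in each treatment) 8 held such a liver. Chance alone picks out about 1 group in 20 when values are normally spread. The 68 groups share livers and chains, so their count cannot be set against that share. Control liver 3 accounted for 6 of the 8. It was the lowest control for Col5a1 (5.84 FPKM, next 8.06), Col4a2 (21.3 FPKM, next 28.6) and Col8a1 (0.700 FPKM, next 1.184), for the summed basement membrane chains (64.5 FPKM, next 83.1) and for all summed chains (438 FPKM, next 557). Its Col3a1 to Col1a1 ratio of 2.55 was the highest of the controls (next 2.13). Liver 4 of the miR-181d-5p group accounted for the other 2, with the lowest Col16a1 (1.69 FPKM, next 2.47) and Col6a2 (5.17 FPKM, next 6.54).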

How the results depend on the processing

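No collagen chain had an adjusted p under 0.05 in any of the 18 other limma settings, and the count of chains lower at an unadjusted p under 0.05 ran from 12 to 17 around 14. With no filter 38 of 41 chains were lower, since more chains entered. Among all genes 0 passed (1768 at an unadjusted p under 0.05), and 0 to 3 with 1 liver left out. Genes lower at an unadjusted p under 0.05 ran from 678 to 1794 with 1 liver left out. The log2 change of Col5a3 ran from -0.0397 to 0.114 with 1 liver left out, and that of Col18a1 was 0.0081 with array weights. With 1 liver left out, ratio differences (log2) crossed 0 for Col1a2/Col1a1 (-0.019 to 0.034), Col4a2/Col4a1 (-0.0052 to 0.064), Col6a2/Col6a1 (-0.0080 to 0.043), Col4a1/Col1a1 (-0.0501 to 0.115) and Col14a1/Col1a1 (-0.0065 to 0.151). The causes were not tested.

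Samples with the same replicate number did not deviate together (correlations of -0.283 to 0.015 over genes, and 0 of 5 controls closest to their own number). The labels do not say that the numbers pair livers, and this check gave no sign of it. A shared factor of small effect could be missed. With the replicate block 1 gene passed, 13 collagen chains were lower at an unadjusted p under 0.05 and the lowest adjusted p of a chain was 0.488. For the ratios the block allows no p below 0.0625.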
